A study of Mus musculus with 6 samples.

Results

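Dntt and 7 other genes of thymocyte stages, Rag1, Rag2, Cd24a, Sox4, Ptcra, Cd1d2 and Plxnd1, were followed in peripheral CD8+ T cells. They are 8 of the 78275 genes in the deposited table, matched by symbol, and they were selected on biology and with earlier results of the same comparison known, so the difference between the groups is given for them as a description. CD4-CD8+ TCRβhigh T cells were sorted from 3 WT mice and 3 BIT mice, 9 to 10 weeks old and given as male in the labels, and the RNA of each mouse was made into 1 library after removal of ribosomal RNA. BIT mice are C57BL/6 mice homozygous for a Psmb8 allele in which the sequence for the immunoproteasome subunit β5i was replaced with the Psmb11 sequence for the thymoproteasome subunit β5t. The study asked whether CD8+ T cells develop normally when the thymoproteasome is made outside cortical thymic epithelial cells. No treatment is given for either group, and the study describes several independent BIT lines but documents a single line unless it says otherwise, while the labels name none. The labels give the tissue as lymph nodes in one field and as lymph nodes and spleens in another.

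The 8 genes belong to steps that a T cell passes in the thymus. Rag1 and Rag2 form the recombinase that cuts the antigen receptor genes, and Dntt encodes terminal deoxynucleotidyl transferase, which adds bases without a template at the joints before the ends are ligated. Ptcra encodes the invariant chain that pairs with TCRβ before TCRα is rearranged, and Cd24a, Sox4, Plxnd1 and the CD1d genes are best known from the double-positive and early single-positive stages. Transcripts of these genes decline as thymocytes mature, and a cell that has recently left the thymus can still carry some of them.

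The libraries held between 37467678 and 52922675 estimated counts, and values are given as CPM, the estimated count scaled to the library total. A count of 0 allows up to 3 counts, which is a level of 0.0567 CPM in the deepest library and 0.0801 CPM in the shallowest, and these limits and all intervals below cover counting error only. This limit is one-sided, and the two-sided exact 95% interval of a count of 0 reaches 0.0697 CPM and 0.0985 CPM in the same libraries. The edited genes matched the labels: Psmb8 had 8024 to 10790 counts in WT libraries and 59 to 73 in BIT libraries, and Psmb11 had 0 counts in every WT library and 1226 to 1926 in BIT libraries. WT replicate 3 stood apart, because Xist had 66626 counts in it and 4 genes of the Y chromosome together had 0, although the labels give a male mouse. Every other library had 8474 to 12329 counts of the same 4 genes. The values of WT replicate 3 are those of a female mouse, and the WT group would then hold both sexes. Values of the members, and of other named genes that this library moves most, are also given without it. In BIT replicate 3 Xist had 125 counts and the same 4 genes of the Y chromosome 8949. In replicates 1 and 2 of both groups Xist had 2 to 9 counts. The summed level of 9 T cell and CD8 genes was 4767 to 5107 CPM in WT libraries and 4994 to 5362 CPM in BIT libraries, and that of 4 CD4 T cell genes was 3.22 to 5.68 CPM over the 6 libraries.

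Of the 8 genes, 4 had enough counts to be compared between the groups, namely Dntt, Sox4, Cd24a and Plxnd1. The other 4, Cd1d2, Rag1, Rag2 and Ptcra, were near or at 0. Dntt was lower in every BIT library than in any WT library, with a BIT mean of 37.0% of the WT mean. Sox4 had nearly equal means, and Cd24a and Plxnd1 overlapped between the groups. In bulk RNA, fewer cells that carry a transcript and less of it per cell cannot be told apart.

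**Figure D1:**
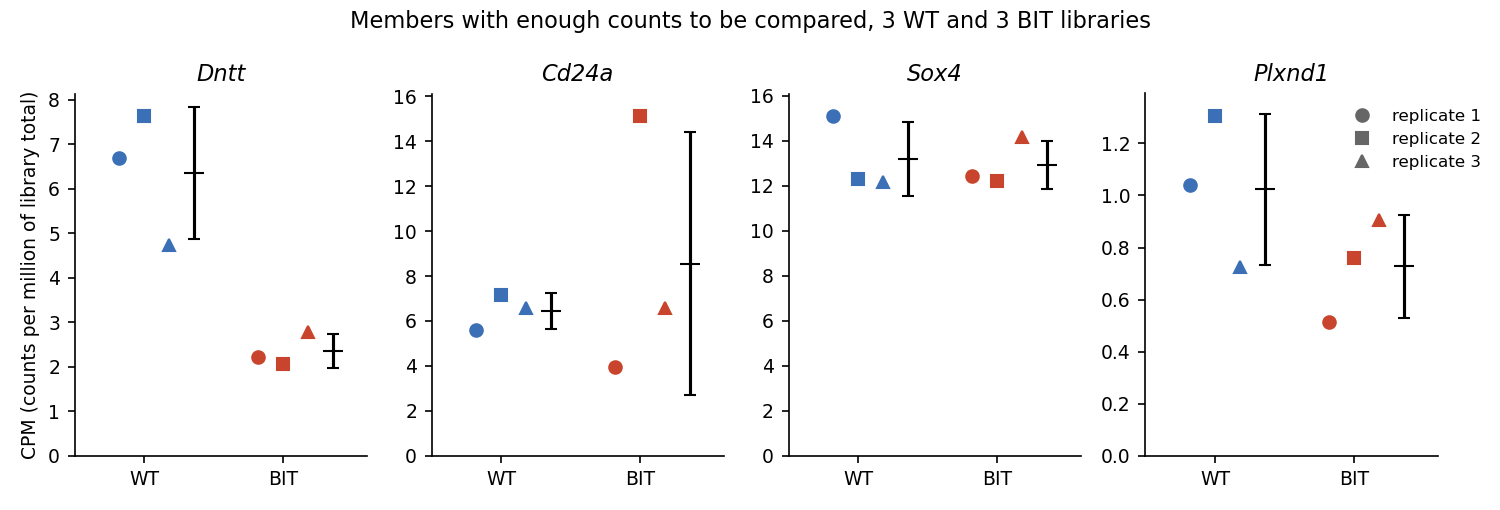
Level in CPM on linear axes from 0 of Dntt, Cd24a, Sox4 and Plxnd1 in 3 WT libraries (blue) and 3 BIT libraries (red), with the replicate shown by the symbol and the mean and SD of each group in black. The 3 BIT values of Dntt, 2.07 to 2.78 CPM, lie below the 3 WT values, 4.73 to 7.63 CPM, while the groups overlap for the other genes and BIT replicate 2 is alone at 15.1 CPM for Cd24a.

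Dntt (ENSMUSG00000025014.14) lies on the forward strand at chr19:41017714-41047964 of GRCm39. Gencode M39 gives it 2 transcription starts, at positions 41017714 and 41017824, and the second falls on the first base of the letters CTCATTCT, known from the initiator element of this TATA-less gene. The stretch of 30 bases around it, chr19:41017813-41017842 on the forward strand of GRCm39, is shown because this promoter became a textbook case of transcription from an initiator. The capitals mark the 8 letters, which stand upstream of the start codon at 41017878.
Dntt: acatcagagccCTCATTCTggagacaccac
The same letters, on either strand, were found in 440 of 32851 RefSeq promoter windows of mouse genes (GRCm38.p6, 250 bases before to 50 after the start), or 1.34%. A match is a description of the sequence and no measure of binding.

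The WT libraries held 354, 386 and 189 counts of Dntt, or 6.69, 7.63 and 4.73 CPM. The BIT libraries held 99, 87 and 104 counts, or 2.21, 2.07 and 2.78 CPM. WT replicate 3 was the lowest of its group and BIT replicate 3 the highest of its own, so the gap between the groups was narrowest at this number, where the lowest WT value was 1.71 times the highest BIT value. The exact 95% intervals of these 2 libraries, 4.08 to 5.46 CPM and 2.27 to 3.36 CPM, did not overlap.

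The mean was 6.35 ± 1.48 CPM in WT mice and 2.35 ± 0.374 CPM in BIT mice (SD, n = 3 each). The fitted log2 fold change of BIT over WT, on quantile-normalized log2 CPM, was -1.38 with a standard error of 0.311. Leaving out single mice moved it from -1.68, without WT replicate 3, to -1.18, without WT replicate 2. Replicates 1 and 2 of both groups, taken by themselves, gave -1.70, and a term for replicate 3 gave -1.41. Over all 16105 genes compared, the median was 0.012, and 0.969% of the genes had a fold change as low as that of Dntt or lower.

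**Figure D2:**
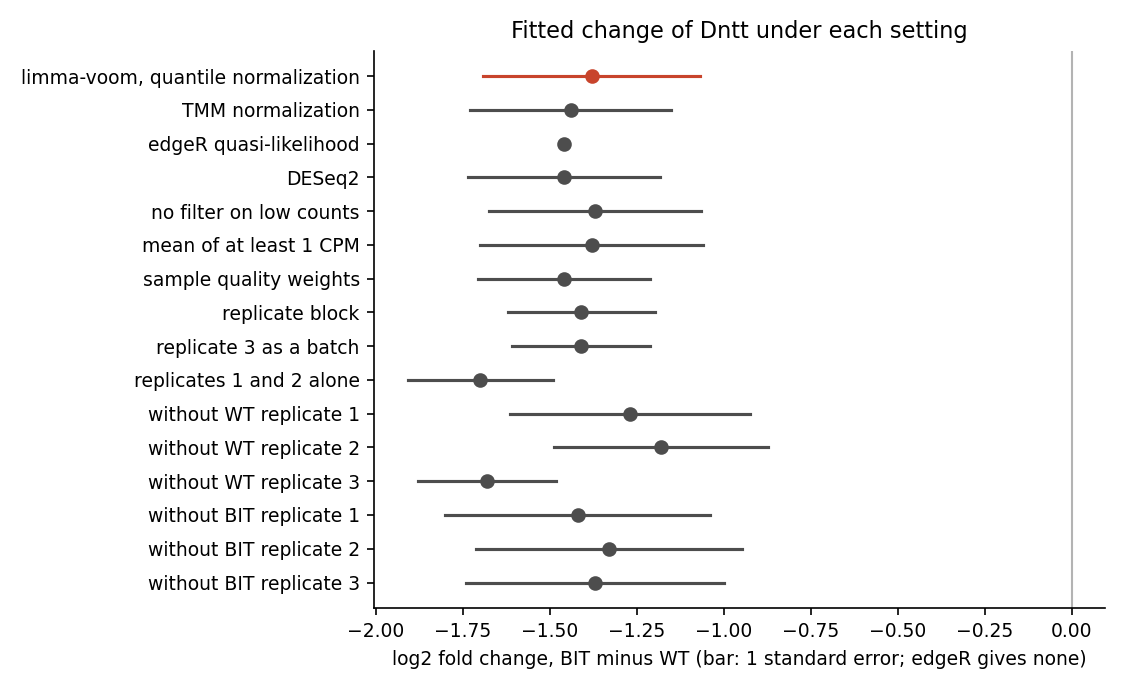
Fitted log2 fold change of Dntt, BIT minus WT, with bars of 1 standard error, in the limma-voom comparison (red) and in 15 other settings that changed the normalization, the test, the filter, the terms or the mice. The values lie between -1.70 and -1.18, and edgeR gives no standard error.

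Part of the Dntt transcript is also covered by genes on the other strand. The long noncoding RNA C330026H20Rik, at chr19:40993106-41020568 on the reverse strand, overlaps its start, and Opalin, a myelin gene with 0 counts in all 6 libraries, overlaps its end. Of the 1971 windows of 100 bases, the read length, in the main Dntt transcript, 590 or 29.9% were shared with these genes, all in antisense. The kit keeps the strand, but the strand setting of the counting is not given in the sources used here. Without it, reads of Dntt and C330026H20Rik cannot be told apart there by their own letters. The sequencing was paired-end, and a mate outside the overlap can assign such a read, which the windows do not take into account.

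C330026H20Rik had 85, 73 and 59 counts in WT libraries and 14, 23 and 54 counts in BIT libraries. Its BIT replicate 3 thus came close to the WT libraries, unlike Dntt. Its log2 fold change was -1.11 (standard error 0.409, between -1.49 and -0.72 with each mouse left out). With its whole level subtracted from that of Dntt, what was left was 5.08, 6.19 and 3.25 CPM of Dntt in WT libraries and 1.90, 1.52 and 1.33 CPM in BIT libraries. The groups did not overlap after this subtraction either, which sets no bound on how many reads the counting may have placed in the wrong gene.

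Among the other genes compared, 5 were named for the likeness of their profile to that of Dntt, by the smallest root mean square difference of centred log2 CPM over the 6 libraries. They were Gm13919 (0.146), Hdac9 (0.154), Ccnd1 (0.207), Igf1 (0.213) and Gm57370 (0.220). Hdac9 encodes a histone deacetylase, Ccnd1 encodes cyclin D1 and Igf1 encodes a growth factor, and the other two are predicted genes. Hdac9 had 75, 93 and 55 counts in WT libraries and 22, 24 and 32 in BIT libraries. Gm13919 had 169, 172 and 88 counts in WT libraries and 34, 32 and 49 in BIT libraries. All 5 were chosen for this likeness, so their lower level in BIT libraries is a description.

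Cells other than CD8+ T cells can also carry Dntt, above all lymphoid progenitors and some plasmacytoid dendritic cells. The sum of 8 plasmacytoid dendritic cell genes was 195 to 240 CPM in WT libraries and 148 to 176 CPM in BIT libraries, but Ccr9, which T cells also express, made up most of it. Without Ccr9 the sum of the other 7 was 37.6 to 53.1 CPM and 41.9 to 63.2 CPM, and the groups overlapped. Single genes of the list went both ways. Siglech had 5, 8 and 5 counts in WT libraries and 0 in every BIT library, which by the limit of 3 counts allows at most 0.0670 to 0.0801 CPM there. Klk1 had 0 counts in every WT library and 1, 1 and 2 in BIT libraries. The log2 fold change was 0.33 for Bst2, -0.09 for Tcf4, -0.13 for Irf8 and -0.07 for Flt3.

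The sum of 7 endothelial and stromal genes was 0.989 to 1.10 CPM in WT libraries and 0.514 to 0.774 CPM in BIT libraries. The sum of 4 γδ T cell genes was 9.69 to 11.8 CPM in WT libraries and 15.1 to 20.3 CPM in BIT libraries, without overlap in the other direction. Within the γδ list Trdc, the constant gene of TCRδ, overlapped between the groups at 4.33 to 5.03 CPM and 3.57 to 4.80 CPM. Sox13 had 0 to 2 counts per library. The higher sum lay in Scart1, at 2.16 to 3.98 CPM and 4.18 to 7.13 CPM, and Scart2, at 2.40 to 3.51 CPM and 6.39 to 9.02 CPM. Scart2 is itself among the genes called by limma-voom, with an adjusted p of 0.0222. B cell, myeloid, neutrophil, erythroid, CD4 T cell and NK cell sums overlapped between the groups. The B cell sum was 43.5 to 55.7 CPM in WT libraries and 34.4 to 44.2 CPM in BIT libraries, where only replicate 2 reached the WT range. Of the 10 B cell genes 9 were compared. All 9 had log2 fold changes below 0, from -0.58 for Pax5 to -0.01 for Cd79b, with 0 at an unadjusted p below 0.05 by limma-voom. Ebf1 was at 1.70 to 2.79 CPM in WT libraries and 1.12 to 1.41 CPM in BIT libraries, lower in every BIT library. The myeloid and conventional dendritic cell sum, at 43.8 to 73.2 CPM and 41.4 to 48.6 CPM, was mostly Cst3. Of the 9 genes in that list 7 were compared, and all 7 had log2 fold changes below 0, from -0.96 for Xcr1 to -0.18 for Cst3. Of these, 0 had an unadjusted p below 0.05 by limma-voom. This covers the listed genes only, and other genes of these cells were not surveyed. Lyz2 was at 4.06 to 6.11 CPM in WT libraries and 3.06 to 3.76 CPM in BIT libraries, and Adgre1 at 1.15 to 1.72 CPM and 0.380 to 1.12 CPM, both lower in every BIT library, as Dntt was. The part of these cells in the level of Dntt was not tested.

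Sox4 (ENSMUSG00000076431.5, chr13:29132902-29137696, reverse strand, 1 exon) encodes a transcription factor with an HMG box. Its levels were 15.1, 12.3 and 12.2 CPM in WT libraries and 12.4, 12.2 and 14.2 CPM in BIT libraries. WT replicate 1 and BIT replicate 3 were the high libraries, and the other 4 lay within 12.2 to 12.4 CPM. The means were 13.2 ± 1.64 CPM and 12.9 ± 1.08 CPM (SD, n = 3 each), and the log2 fold change was -0.01 with a standard error of 0.136, and single mice left out moved it from -0.11, without WT replicate 3, to 0.11. In antisense, 13.1% of its windows were shared with A330102I10Rik, which had 1 to 7 counts per library.

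Cd24a (ENSMUSG00000047139.10, chr10:43454280-43460264, forward strand) encodes the heat-stable antigen, a glycosylphosphatidylinositol-anchored protein of immature lymphocytes and of erythroid cells. The WT libraries held 5.57, 7.14 and 6.58 CPM and the BIT libraries 3.93, 15.1 and 6.59 CPM. BIT replicate 1 was below every WT library and BIT replicate 2 above every other library. The log2 fold change was 0.22 with a standard error of 0.398, without BIT replicate 2 it was -0.31 and without WT replicate 3 it was 0.16.

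The same library was highest in erythroid genes. The summed level of Hbb-bs, Hba-a1, Hba-a2 and Alas2 was 54.0 CPM in BIT replicate 2 and 1.72 to 15.1 CPM in the other 5 libraries. Alas2, the first enzyme of haem synthesis in erythroid cells, was at 21.7 CPM there and at 0.526 to 5.42 CPM in the others. The sum of 6 neutrophil genes was 4.61 CPM in BIT replicate 2 but also 4.18 CPM in WT replicate 3, where Cd24a was not raised. The part of erythroid RNA in the Cd24a value was not tested.

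**Figure D3:**
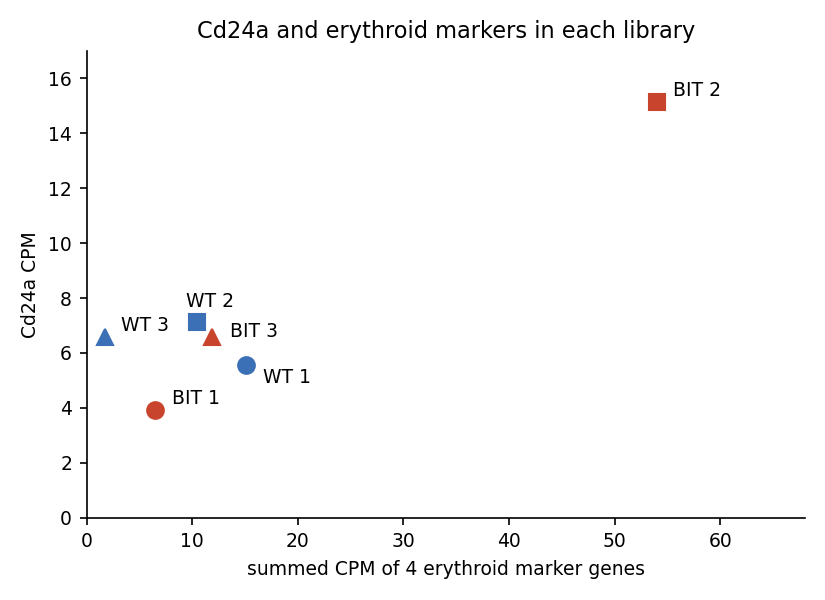
Cd24a level (CPM) against the summed level of 4 erythroid marker genes (CPM), both axes linear from 0, in 3 WT libraries (blue) and 3 BIT libraries (red), each labelled with its group and replicate. BIT replicate 2 lies apart on both axes, at 54.0 CPM of erythroid genes and 15.1 CPM of Cd24a, and the other 5 libraries reach at most 15.1 CPM and 7.14 CPM.

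Plxnd1 (ENSMUSG00000030123.16, chr6:115931772-115972286, reverse strand) encodes plexin D1, a semaphorin receptor that guides maturing thymocytes towards the medulla. It had 55, 66 and 29 counts in WT libraries and 23, 32 and 34 counts in BIT libraries, or 1.02 ± 0.290 CPM and 0.727 ± 0.199 CPM (SD, n = 3 each). WT replicate 3, at 0.726 CPM, lay among the BIT libraries, and the other WT libraries lay above them. The log2 fold change was -0.34 with a standard error of 0.407. It was -0.72 without WT replicate 3 and between -0.45 and -0.10 when any other mouse was left out. No window of its transcript was shared with another gene.

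Compared per kilobase of exon, Dntt, Sox4 and Cd24a were at nearly the same level in WT libraries, with 2.77 ± 0.646, 2.75 ± 0.342 and 2.49 ± 0.307 CPM per kilobase, and their ranges overlapped. Plxnd1 followed at 0.129 ± 0.0365 CPM per kilobase. In BIT libraries Dntt was at 1.03 ± 0.163 CPM per kilobase, below every value of Sox4 (2.54 to 2.96) and of Cd24a (1.52 to 5.85). Taken within each library, which removes the library total, the level of Dntt per kilobase was 92.7%, 130% and 81.2% of that of Sox4 in WT libraries. In BIT libraries it was 37.2%, 35.5% and 41.0%. Since Sox4 had nearly equal means in the groups, this ratio repeats the difference in the CPM of Dntt and is no separate evidence for it. The lowest WT ratio was again in replicate 3.

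Cd1d2 (ENSMUSG00000041750.15, chr3:86893858-86897087, forward strand) is a paralogue of Cd1d1, the gene for the lipid-presenting molecule that selects NKT cells, and in C57BL/6 mice it carries a frameshift. Its estimated counts were 7.07, 0 and 8.11 in WT libraries and 4.03, 1.04 and 3.04 in BIT libraries, or 0 to 0.203 CPM and 0.0247 to 0.0811 CPM. The WT values enclosed the BIT values, and no difference was detectable at this depth. The decimals show reads that the counting divided between genes. Cd1d1 (chr3:86903132-86906770, reverse strand), at 799.93, 773 and 584.89 estimated counts in WT libraries and 576.97, 580.96 and 488.96 in BIT libraries, was far above it.

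Of the 1428 windows of 100 bases in the Cd1d2 transcript, 269 or 18.8% were identical to Cd1d1 on the same strand. The coding parts of the pair were between 86.4% and 99.0% identical, and 2 parts differed in length, the fourth at 278 bases in Cd1d2 and 279 in Cd1d1 and the sixth at 22 and 19 bases. An identical and a divergent window of 100 bases, both from the second coding part, are shown to make clear which reads can be assigned, on GRCm39. The identical windows are at chr3:86894425-86894524 on the forward strand for Cd1d2 and at chr3:86905983-86906082 on the reverse strand for Cd1d1.
Cd1d2, identical window: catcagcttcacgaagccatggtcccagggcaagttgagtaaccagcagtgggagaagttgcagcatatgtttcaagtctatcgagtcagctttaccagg
Cd1d1, identical window: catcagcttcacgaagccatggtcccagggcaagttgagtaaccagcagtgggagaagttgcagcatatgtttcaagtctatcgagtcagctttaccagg
The windows next to them, at chr3:86894325-86894424 on the forward strand and chr3:86906083-86906182 on the reverse strand, hold 9 differences, which are in capitals.
Cd1d2, divergent window: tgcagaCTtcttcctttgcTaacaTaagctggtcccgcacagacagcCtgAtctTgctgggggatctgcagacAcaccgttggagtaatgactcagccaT
Cd1d1, divergent window: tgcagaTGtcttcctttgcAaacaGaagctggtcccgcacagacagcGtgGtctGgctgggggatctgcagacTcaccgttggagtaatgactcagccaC
A read from the first pair of windows cannot be assigned by its own letters. The sequencing was paired-end, and a mate in a divergent stretch can assign such a read, which the windows do not take into account. The few counts of Cd1d2 are uncertain to the extent that this fails.

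The recombinase genes were at the detection limit. Rag1 (ENSMUSG00000061311.7, chr2:101468603-101479877, reverse strand) had 0 counts in every WT library and 1, 1 and 0 counts in BIT libraries. A single count in BIT replicate 1 is 0.0223 CPM, with an exact 95% interval from 0.000566 to 0.124 CPM. Rag2 (ENSMUSG00000032864.5, chr2:101455063-101462874, forward strand) had 0 counts in all 6 libraries, which by the limit of 3 counts allows at most 0.0567 to 0.0801 CPM.

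Both genes lie within Iftap, which had 5, 11 and 6 counts in WT libraries and 17, 10 and 10 in BIT libraries, and 0.213% of the Rag1 windows and 3.34% of the Rag2 windows were shared with it. Ptcra (ENSMUSG00000036858.9, chr17:47066578-47074902, reverse strand) had 0 counts in 5 libraries and 1 count in BIT replicate 3, or 0.0267 CPM. No difference between the groups was detectable in these 3 genes, and no fold is given. Dntt itself was thus present at 87 or more counts in every library while both recombinase genes had at most 1.

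**Figure D4:**
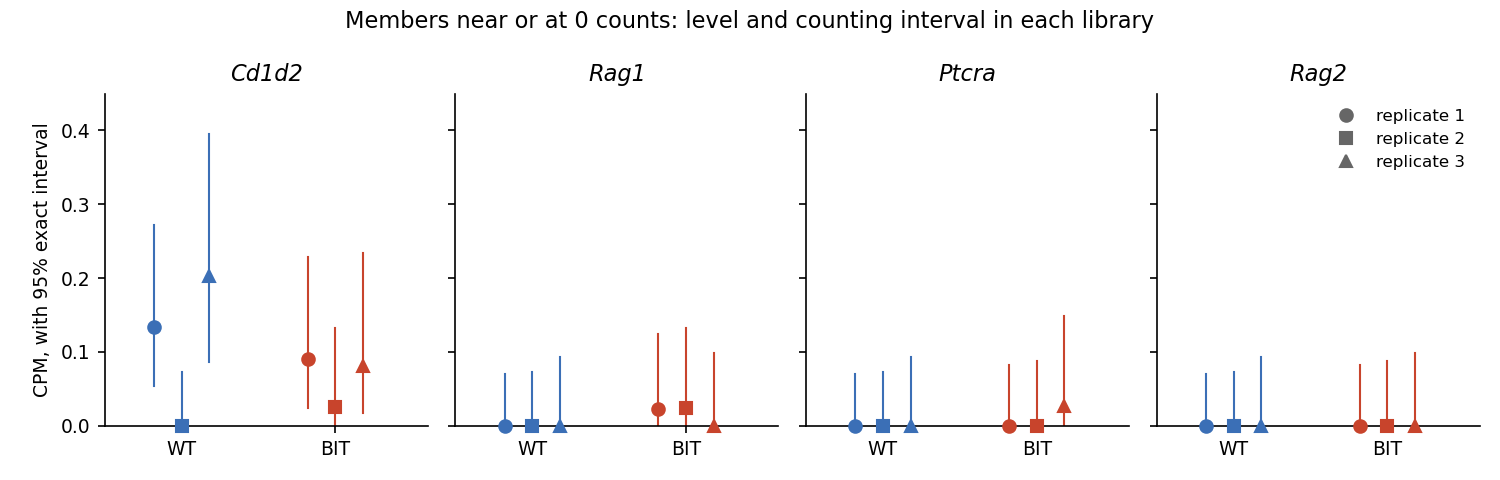
Level in CPM, on 1 shared linear axis from 0, of Cd1d2, Rag1, Ptcra and Rag2 in 3 WT libraries (blue) and 3 BIT libraries (red), with vertical lines for the two-sided exact 95% interval of each count. The intervals of every library start at or near 0 for Rag1, Ptcra and Rag2, and the largest value is 0.203 CPM of Cd1d2 in WT replicate 3.

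The comparison by limma-voom, adjusted after Benjamini and Hochberg, called 22 of 16105 genes, or 0.137%, at an adjusted p below 0.05, 13 higher and 9 lower in BIT libraries, and 0 of the 4 members compared. Before adjustment, 1380 genes, or 8.57%, and 1 member, Dntt, had a p below 0.05. The quasi-likelihood test of edgeR called 14 genes, or 0.0869%, and 0 members, and DESeq2 called 125 genes, or 0.776%, and 1 member, again Dntt. On quantile-normalized log2 CPM every BIT library lay below every WT library in 960 genes, or 5.96%, and in 1 member, Dntt. Every BIT library lay above every WT library in 1188 genes, or 7.38%, and in 0 members. Since the members were chosen with this comparison known, nothing is read from their counts.

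To place the members among their neighbours in the pathway, 5 lists with 71 genes in all were described, of which 61 were compared. With limma-voom, 0 of the 61 had an adjusted p below 0.05 over all genes. Before adjustment a p below 0.05 was reached by 11, or 18.0%, of which 6 were higher and 5 lower in BIT libraries, beside 8.57% of all genes. With edgeR 0 of them were called and with DESeq2 2, Il7r and Ccr9. The groups did not overlap in 6 lower genes, or 9.84%, and in 5 higher genes, or 8.20%, beside 5.96% and 7.38% of all genes. Of the 11 genes with an unadjusted p below 0.05, 7 stand in the emigrant and late maturation list and 0 in the V(D)J joining list. The lists were chosen with earlier results of these data known, so nothing is read from these shares.

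The genes that finish the joint Dntt acts on were measured well. All 14 of the V(D)J joining and end processing list were compared, 0 reached an unadjusted p below 0.05, and their median log2 fold change was -0.018, beside 0.012 over all genes. The most different were Hmgb2 (-0.48), Nhej1 (0.31), the end-joining factor XLF, and Hmgb1 (-0.20), and the groups overlapped in each of them. Hmgb2, a DNA-bending protein that helps the recombinase, was at 76.3 CPM in WT replicate 3 and at 34.9 to 45.4 CPM in the other 5 libraries, and without WT replicate 3 its log2 fold change was -0.22. That of Nhej1 was then 0.19 and that of Hmgb1 -0.28, and without WT replicate 2 that of Hmgb1 was -0.10. Polm and Poll, the nearest polymerases to Dntt that fill gaps at the joint, had log2 fold changes of 0.02 and 0.08.

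Of the early thymocyte and pre-TCR list, 10 of 14 genes were compared and the median was 0.083. The 3 named were Il2ra (-0.59), Lyl1 (0.51) and Bcl11a (-0.35). Lyl1 had 8 to 28 counts per library, and its value rested on WT libraries and on the test, with 0.02 without WT replicate 3, 1.12 without WT replicate 2 and 0.02 by edgeR. That of Bcl11a ran from -0.60, without BIT replicate 2, to -0.17, without WT replicate 2. Il2ra, the α chain of the IL-2 receptor, was at 2.61, 2.27 and 3.53 CPM in WT libraries and at 1.68, 1.64 and 1.79 CPM in BIT libraries, without overlap. Its adjusted p was 0.547 by limma-voom. Igll1, whose product is part of the surrogate light chain, had 0 counts in all libraries.

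Of the double-positive thymocyte list, 11 of 13 genes were compared and the median was -0.098. It was 0.006 without BIT replicate 2 and -0.192 without WT replicate 3. Arpp21 and Endou, known from that stage, were near the limit, with 0 to 7 counts of Arpp21 and 1 to 7 of Endou per library. Cd4 had 8 to 38 counts per library and a log2 fold change of -0.46 with overlapping groups, which ran from -0.97, without BIT replicate 2, to -0.08, without WT replicate 1. Themis, which tunes TCR signals during selection, had -0.32, with 391 to 425 CPM in WT libraries and 309 to 389 CPM in BIT libraries and an adjusted p of 0.503 by limma-voom.

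Ccr9, the receptor for the thymic and intestinal chemokine CCL25, stands in this list and in the next. It was at 177, 187 and 149 CPM in WT libraries and at 113, 95.5 and 115 CPM in BIT libraries. The groups did not overlap, and WT replicate 3 was again the lowest WT library. The log2 fold change was -0.73 with a standard error of 0.136. The adjusted p was 0.199 by limma-voom, 0.271 by edgeR and 0.00194 by DESeq2, and with each mouse left out it ran from 0.0307, without WT replicate 3, to 0.902 by limma-voom.

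Of the emigrant and late maturation list, 20 of 21 genes were compared, and the members went both ways around a median of -0.034, which was 0.028 with TMM normalization. An unadjusted p below 0.05 was reached by 5 higher and 2 lower genes, or 35.0% of the list, beside 8.57% of all genes. The list was chosen with earlier results known, so nothing is read from this share. Itgae, the αE integrin that new emigrants of the CD8 lineage carry, was at 164, 145 and 124 CPM in WT libraries and at 116, 99.3 and 98.7 CPM in BIT libraries. Its log2 fold change was -0.53 with a standard error of 0.130 and an adjusted p of 0.372 by limma-voom.

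Il7r, the α chain of the IL-7 receptor, which increases as emigrants mature, was at 688, 580 and 706 CPM in WT libraries and at 960, 939 and 1061 CPM in BIT libraries. Its log2 fold change was 0.54 with a standard error of 0.0941. The adjusted p was 0.154 by limma-voom, 0.179 by edgeR and 1.29e-07 by DESeq2, and with each mouse left out it ran from 0.0675 to 0.509 by limma-voom. Ptk7, a marker of human emigrants, had 0 to 3 counts per library. As in the other lists, 0 genes of this list passed the adjusted threshold in limma-voom.

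**Figure D5:**
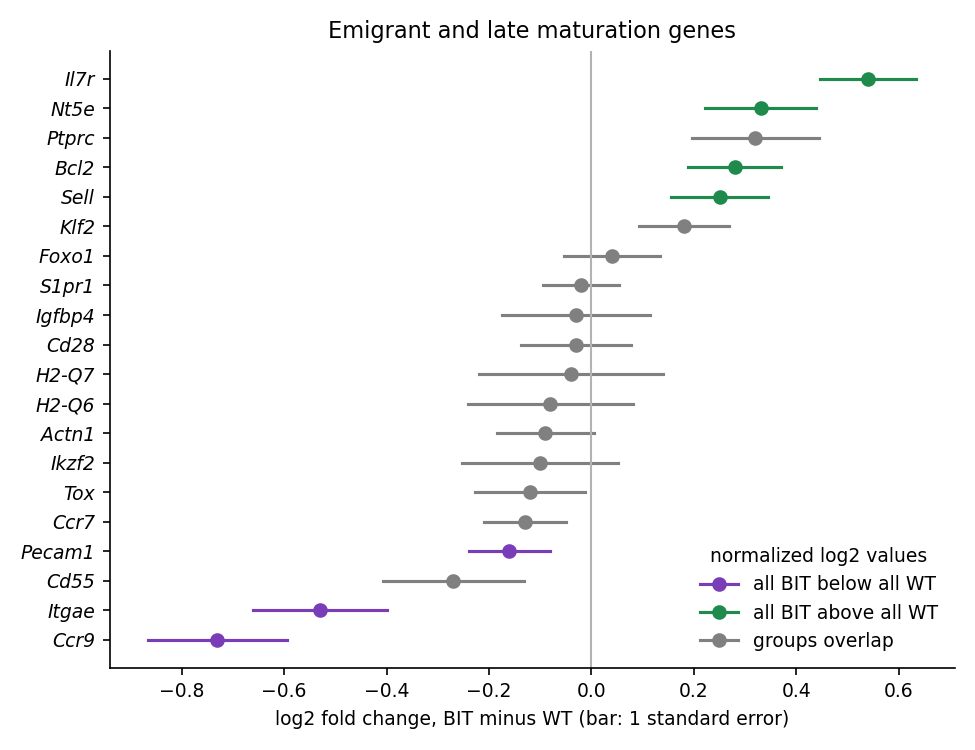
Fitted log2 fold change, BIT minus WT, with bars of 1 standard error, for the 20 compared genes of the emigrant and late maturation list, sorted by value and coloured by whether the groups overlap on quantile-normalized log2 CPM. Ccr9 (-0.73) and Itgae (-0.53) lie at the low end and Il7r (0.54) at the high end, with 3 genes fully lower and 4 fully higher in BIT libraries.

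Of the partners and paralogues of the members, 12 of 15 genes were compared and the median was -0.023, or 0.058 without WT replicate 1. Nrp1, a coreceptor that plexins can share, was at 2.85, 2.91 and 3.68 CPM in WT libraries and at 1.72, 1.62 and 2.48 CPM in BIT libraries. Its log2 fold change was -0.62 with a standard error of 0.201 and an adjusted p of 0.511 by limma-voom. Siglecg, which binds the product of Cd24a, had 8 to 32 counts per library and a log2 fold change of -0.48 with overlapping groups, between -0.82 and -0.29 with single mice left out, and Sema4a had 0.18. Sema3e, the ligand of plexin D1, had 0 to 2 counts per library, and Sox11, a relative of Sox4, had 0 counts in all 6. Cd1d1 had a log2 fold change of -0.17 with a standard error of 0.114.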

How the data were processed

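Libraries of 3 WT and 3 BIT mice were grouped by their labels. For each gene the authors deposited an estimated count, made with Cutadapt 1.18, STAR 2.7.0f on GRCm39 and RSEM 1.3.1 on Gencode M38 (versions from the submitters' processing notes); 84.8% of values above 0 are whole. They were rounded, filtered with filterByExpr of edgeR 4.0.16, quantile-normalized and compared with limma-voom 3.58.1 in R 4.3.3, the method the study names, with Benjamini-Hochberg adjustment over 16105 genes. CPM used the library totals of 37467678 to 52922675 estimated counts, with exact 95% binomial intervals of the rounded counts. DESeq2 1.42.0 and edgeR's quasi-likelihood test were among 15 alternatives. The scripts were tested on simulated data. Members, lists and tests were chosen with earlier results of these data known. Named were all members, the 3 largest changes per list, genes that overlap or adjoin members, and the 5 profiles nearest to Dntt; other genes with values were chosen after these were seen. Gene positions are from Gencode M39, and 1 γδ marker was not matched by name. Some listed genes are not reported here. RSEM divides shared reads, and values relative to a total do not show a shift of most genes.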

Additional observations from a re-analysis of the deposited data

How the results depend on the processing

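Dntt was lower in BIT libraries in all 16 settings, with log2 fold changes between -1.70 and -1.18. The settings reuse the same libraries or part of them, where every BIT value of Dntt lay below every WT value. Dntt was also chosen with this comparison known, so the shared sign is no separate evidence. The 22 genes called by limma-voom became 14 with edgeR, 125 with DESeq2, 42 with a term for replicate 3 and 71 in replicates 1 and 2 alone. With each mouse left out the number ran from 1, without WT replicate 1, to 37, without WT replicate 3, and it was 4, 9, 2 and 11 without WT replicate 2 and BIT replicates 1, 2 and 3. The 0 members called became 1, Dntt, with DESeq2, with the term for replicate 3, in replicates 1 and 2 alone and without WT replicate 3, and the range with each mouse left out was 0 to 1. The 0 list genes called became 2 with DESeq2, 1 (Il7r) with no filter on low counts, 1 (Il7r) with the term for replicate 3 and 1 (Ccr9) in replicates 1 and 2 alone, and 0 to 1 with each mouse left out, with 1 (Ccr9) without WT replicate 3. The replicate block gave 21 genes, 0 list genes and 0 members. Replicate numbers were not taken to pair the mice. Deviations from the group means correlated at 0.139, 0.0255 and 0.332 for numbers 1, 2 and 3, and WT replicate 2 correlated best with BIT replicate 1 (0.244). Replicate 3 of each group correlated best with replicate 3 of the other, and with its replicates 1 and 2 at -0.299 to -0.108. These values do not set aside a structure shared by both replicates 3. Of the members and list genes, Dntt, Ccr9 and Il7r were called in some settings, and each kept its sign in all of them. The signs of the other called genes were not followed. Cd24a turned from 0.22 to -0.31 without BIT replicate 2, and Sox4 went from -0.01 to 0.11 without WT replicate 1. In addition, 3 list medians crossed 0. That of the double-positive list was 0.006 without BIT replicate 2. That of the emigrant list was 0.019 to 0.029 with TMM, edgeR, DESeq2 or without WT replicate 3. That of the partners list was 0.001 to 0.058 with a mean of at least 1 CPM or without replicate 1 of either group. The causes were not tested. With 3 mice a group, single libraries decide which genes pass, and for genes with a few counts depth is the limit.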
